A study of Parascaris univalens with 7 samples.

Results

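Both gonads of the horse roundworm Parascaris univalens, testis and ovary, were set against its adult somatic tissues, intestine and carcass (the body left after dissection), gene by gene. The 4 libraries compared are among 7 of the study, with 1 library per tissue, all from wild type worms of a North American strain, collected from horse intestine. The labels call testis male germline, ovary female germline, and intestine and carcass male somatic. The embryo library, which the labels also call male somatic, was used only to place the genes found. A gene was called gonad-higher when the lower of testis and ovary exceeded the higher of intestine and carcass by at least 2 on the log2(RPKM + 1) scale (4-fold), with at least 5 RPKM in both gonads, and soma-higher by the reverse rule. RPKM divides the reads of a transcript by its length and by the size of the library. All 15027 genes of the table entered, 985 marked as eliminated and 14042 retained, each by its transcript with the highest mean over the 5 tissues.

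Parascaris removes part of its genome from the cells that become somatic during early embryonic cleavage, a process called programmed DNA elimination, while the germ cells keep the whole genome. A gene marked as eliminated is therefore present in the DNA of germ cells and absent from that of somatic cells, whereas retained genes are present in both. A gonad also holds somatic cells of its wall and ducts, so a gonad library is not a library of germ cells alone.

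Low values rise in steps of 1 read, and the steps gave a depth of 31400000 reads for the testis, 31650000 for the ovary, 11950000 for the embryo, 18550000 for the intestine and 27550000 for the carcass. With 1 library per tissue there is no replicate error, so differences are those of these libraries and carry no p-value. Intervals for shares of genes treat genes as independent draws, which copies and neighbours are not, and hold no error of read counts, worms or libraries. The scale understates the fold of low genes. The tissue labels were checked against marker genes. The 45 sperm markers with at least 5 RPKM somewhere were all highest in the testis, 21 of 24 oocyte and eggshell markers were highest in the ovary, 17 of 34 intestinal markers were highest in the intestine, and 47 of 77 cuticle and muscle markers were highest in the carcass. The summed sperm markers stood at 38029 RPKM in the testis and 56.3 in the ovary, against 939 in the intestine and 441 in the carcass. The summed cuticle and muscle markers stood at 3215 RPKM in the testis and 1626 in the ovary, against 708 in the intestine and 43343 in the carcass. Their part in the results below was not tested. In bulk tissue, fewer cells of a type and less RNA per cell cannot be told apart.

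Among eliminated genes, 173 were gonad-higher, which is 17.6% of them, and 0 were soma-higher (0%). Among retained genes, 332 were gonad-higher (2.36%) and 255 were soma-higher (1.82%). At least 5 RPKM in both gonads was listed for 256 eliminated and 5062 retained genes. A further 424 eliminated and 1439 retained genes reached that level in the testis only, and 84 eliminated and 2730 retained genes in the ovary only. Of the genes at 5 RPKM in both gonads, 67.6% of the eliminated ones were gonad-higher (exact Clopper-Pearson 95% interval across genes 61.5% to 73.3%), against 6.56% of the retained ones (5.89% to 7.28%). On the somatic side, 49 eliminated and 3737 retained genes had at least 5 RPKM in both intestine and carcass, and 6.82% of those 3737 were soma-higher.

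**Figure D1:**
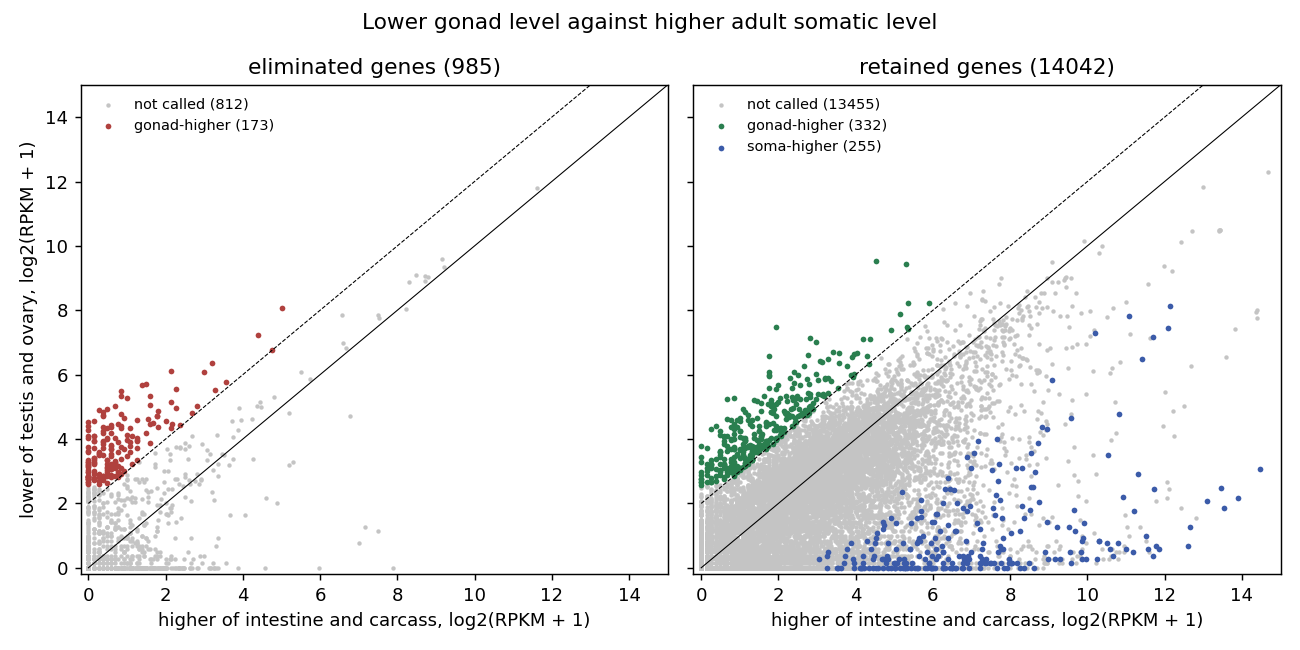
Each point is a gene, with the higher of its intestine and carcass levels across and the lower of its testis and ovary levels upward, both as log2(RPKM + 1); eliminated genes are on the left and retained genes on the right. The solid line marks equal levels and the dashed line a difference of 2; the 173 eliminated gonad-higher genes gather mostly at the left edge, near 0 in soma, and the 332 retained ones run along the dashed line up to higher somatic levels.

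The median gonad-higher eliminated gene had 16.2 RPKM in the testis and 20.8 in the ovary, against 0.4 in the intestine and 0.2 in the carcass. The median gonad-higher retained gene had 22.95 RPKM in the testis and 30.15 in the ovary, against 1.4 in the intestine and 0.9 in the carcass. Eliminated genes thus reached lower somatic levels from somewhat lower gonad levels. Their difference had a median of 2.95 (quartiles 2.58 and 3.46), and that of the retained genes 2.60 (2.25 and 3.07). Intestine was listed at 0 for 54 of the 173 eliminated and 35 of the 332 retained genes, and carcass for 50 and 21. Within the gonad pair, 72 of the 173 eliminated and 174 of the 332 retained genes had testis and ovary levels within 2-fold of each other. A 4-fold higher level in the testis than in the ovary was seen for 15 eliminated and 12 retained gonad-higher genes, and a 4-fold higher level in the ovary for 20 and 49. This order depends on scaling: the median-of-ratios factor, by which values are divided, was 0.936 for the testis and 2.03 for the ovary, and the counts were not repeated on that scale.

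The balance between both directions depended on how the libraries were scaled, and the retained calls more than the eliminated ones. Of the retained calls on the deposited values, 56.6% were gonad-higher (332 and 255 genes). The share was 25.1% after median-of-ratios scaling (171 and 510 genes), 22.5% after scaling to the upper quartile (151 and 521), 44.4% when sums were made equal after leaving out each tissue's 20 highest genes (235 and 294) and 64.5% in TPM (278 and 153). These scalings moved the median difference of all retained genes by −0.38, −0.46, −0.26 and −0.02. Under all 4 of them, 93 of 173 eliminated gonad-higher genes, 135 of 332 retained gonad-higher genes and 151 of 255 retained soma-higher genes kept their call. Of the 30 leading retained gonad-higher genes with an informative name, only the serine carboxypeptidase PgR059_g059 lost it under any of these scalings.

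The genes with the largest differences were of mixed kinds. PP1-gamma (PgB01_g119, scaffold PgB01, 1802233 to 1809247, minus strand), a catalytic subunit of protein phosphatase 1, had 178.3 RPKM in the testis and 256.6 in the ovary, against 2.8 in the intestine and 2.3 in the carcass, a difference of 5.56. MMAA (PgR081_g014), in humans a chaperone of the vitamin B12 enzyme methylmalonyl-CoA mutase, had 353.2 RPKM in the testis, 83.3 in the ovary and 8.5 in the embryo, against 7.7 in the intestine and 5.4 in the carcass. A ribosomal protein L10 gene (PgR015_g055) had 58.6 RPKM in the testis and 172.8 in the ovary, against 3.9 in the intestine and 1.3 in the carcass, and it was the 1 retained gonad-higher gene among 110 ribosomal ones. Polyubiquitin (PgB13_g035), a source of the protein tag ubiquitin, had 128.6 RPKM in the testis and 331.3 in the ovary, against 6.8 in the intestine and 2.4 in the carcass, in a run of called neighbours on its scaffold. Cytoplasmic dynein-2 (PgR017X_g084), a motor of transport in cilia, had 52.1 RPKM in the testis and 91.4 in the ovary, against 4.3 in the intestine and 2.2 in the carcass. A trypsin inhibitor gene (PgR160_g002) of the peptidase list was not among the largest differences, lying below their upper quartile of 3.07. It had 92.8 RPKM in the testis and 570.4 in the ovary, against 4.1 in the intestine and 14 in the carcass.

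By share of members, germ granule and translational repressor genes were the retained list with the most gonad-higher calls on the deposited values (28.6%). Of 35 retained members 10 were gonad-higher and 0 soma-higher, and the list's median difference was 0.71, against −0.38 over all retained genes; 9 or 10 members were gonad-higher under each of the 4 scalings. A nanos-like protein (PgB04_g133), a family of translational repressors needed for germ cells in many animals, had 29.6 RPKM in the testis and 40.1 in the ovary, against 1.1 in the intestine and 0.1 in the carcass. Tudor domain proteins, which bind methylated arginines and scaffold germ granules, were gonad-higher in 4 of 11 retained cases, all 4 kept under every scaling. The highest of these in the testis, PgB01_g024, had 39 RPKM in the testis and 21.2 in the ovary, against 1.4 in the intestine and 0.5 in the carcass. All 11 tudor genes were below 5 RPKM in at least one somatic tissue.

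The 4 retained genes annotated as gld-1, an RNA-binding repressor that in Caenorhabditis elegans governs entry into meiosis and oocyte development, divided between the gonads. PgB02X_g016 had 92.2 RPKM in the testis and 29.3 in the ovary, against 2.4 in the intestine and 2.7 in the carcass. PgR043_g016 had 20.4 RPKM in the testis and 452.4 in the ovary, against 2.2 in the intestine and 1.5 in the carcass. PgR075_g039 had 16.9 RPKM in the testis and 112.6 in the ovary, against 0.8 in the intestine and 0.5 in the carcass. The fourth copy, PgR031_g009, was not called because it was listed at 0 in the ovary, with 214.4 RPKM in the testis. One copy thus stood higher in the testis, a pair stood higher in the ovary, and the fourth was listed in the testis and not in the ovary. Of the 3 called copies, 2 kept their call under all 4 scalings.

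Small RNA genes included 3 of 11 retained members on the gonad side and 0 on the somatic side. CSR-1 (PgR178_g009), an Argonaute that in Caenorhabditis elegans targets germline-expressed genes, had 75.8 RPKM in the testis, 66.7 in the ovary and 74.8 in the embryo, against 2.4 in the intestine and 1.1 in the carcass. The Argonaute WAGO-2 (PgR028_g091) had 11.8 RPKM in the testis and 56.1 in the ovary, against 1.5 in the intestine and 1.2 in the carcass. A putative RNA-dependent RNA polymerase (PgR093_g025), the kind of enzyme that makes secondary small RNAs, had 12 RPKM in the testis and 11.4 in the ovary, against 1.8 in the intestine and 1.4 in the carcass. None of the 11 retained members reached 5 RPKM in both somatic tissues. The list's median difference was 0.13 as deposited and below 0 with each of the 4 scalings, between −0.26 and −0.03.

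Meiotic genes gave 3 of 13 members. Both HORMA domain proteins, which organise the axes of meiotic chromosomes, were called, and 1 of the 2 kept its call under all 4 scalings. PgR064_g021 had 9.5 RPKM in the testis and 28.1 in the ovary, against 1.2 in the intestine and 0.5 in the carcass. PgR064_g006 had 8.3 RPKM in the testis and 20.9 in the ovary, against 0 in the intestine (listed) and 0.1 in the carcass. Of the 13, 10 were not called, and 5 had at least 5 RPKM in both gonads. The list's median difference was 0.38 as deposited and −0.01 with median-of-ratios scaling.

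Genes that move and pack chromosomes had shares of gonad-higher calls above the background of 2.36% on the deposited values. Of 52 retained kinetochore, spindle and checkpoint genes 10 were gonad-higher and 0 soma-higher, with a median difference of 0.98; after median-of-ratios or upper-quartile scaling 2 of the 52 were called. NDC80, the microtubule-binding protein of the outer kinetochore, had 3 of 4 copies called, of which 1 kept its call under all 4 scalings. Of the called copies PgR043_g067 had 36.6 RPKM in the testis and 43.4 in the ovary, against 6.8 in the intestine and 4.3 in the carcass. The kinesin KIF14 (PgR029_g010), which acts at the end of cell division, had 69 RPKM in the testis and 13.1 in the ovary, against 1.4 in the intestine and 0.9 in the carcass. Aurora kinase B (PgR105_g032), which corrects chromosome attachment, had 15.7 RPKM in the testis and 12 in the ovary, against 0.4 in the intestine and 0.8 in the carcass. Of 23 cohesin, condensin and SMC genes 4 were gonad-higher (median 1.40), and 2 after either of these scalings, among them a condensin-2 subunit G2 (PgR024_g010) with 54.4 RPKM in the testis and 51 in the ovary, against 5.9 in the intestine and 1.6 in the carcass. Anillin, the scaffold of the cytokinetic ring, had 3 of 4 genes called, and all 3 were kept under the 4 scalings. The best separated, PgR002_g035, had 25.9 RPKM in the testis and 30.7 in the ovary, against 1.3 in the intestine and 0.9 in the carcass.

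DNA replication genes gave 5 of 63 members (median 0.81) and repair genes 2 of 39 (0.38). After median-of-ratios or upper-quartile scaling replication genes gave 2 of 63. The primase small subunit (PgR044_g004) had 13.4 RPKM in the testis and 48.9 in the ovary, against 1.8 in the intestine and 0.4 in the carcass. No retained call on either side was made among 40 cyclins, CDKs and subunits of the anaphase-promoting complex (median 0.46), 30 histones (0.59) and 91 splicing genes (0.13). For histones 20 of the 30 genes had at least 5 RPKM in both somatic tissues as well. Chromatin modifiers and remodellers had 6 of 105 called gonad-higher and 1 soma-higher, against 1 and 1 after either of these scalings. Of these 6, 3 were chromobox protein 3, of the HP1 family that binds methylated histone H3. The chromobox gene PgR092_g032 had 11.2 RPKM in the testis and 59.1 in the ovary, against 1.7 in the intestine and 0.4 in the carcass, and none of the 3 kept its call under all 4 scalings. The soma-higher member was an immunoglobulin-domain gene caught by its annotation words (PgR005X_g227), with 0.1 RPKM in the testis and 0.7 in the ovary, against 9.7 in the intestine and 251.4 in the carcass. A gene of the same annotation (PgR001X_g258), caught in the same way, was among the 6 gonad-higher members.

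Families whose names point to soma also had gonad-higher members. Of 24 innexins, the gap junction proteins of invertebrates, 7 were gonad-higher and 0 soma-higher, and 4 of the 7 kept their call under all 4 scalings. Innexin-3 (PgR122_g009, scaffold PgR122, 150505 to 167642, plus strand) had 61.8 RPKM in the testis, 73.7 in the ovary and 43.4 in the embryo, against 2.4 in the intestine and 1.1 in the carcass. Innexin unc-7 (PgR023_g041) had 35.2 RPKM in the testis, 183.9 in the ovary and 1.2 in the embryo, against 1.7 in the intestine and 1 in the carcass. A further innexin-3 (PgR004_g203) had 109.2 RPKM in the testis and 94.7 in the ovary, against 18.6 in the intestine and 1.6 in the carcass. In Caenorhabditis elegans innexins couple germ cells to the somatic gonad sheath. A basement membrane proteoglycan (PgR001X_g272), of the matrix that surrounds tissues, had 97.9 RPKM in the testis, 170.5 in the ovary and 1.5 in the embryo, against 3.1 in the intestine and 14.5 in the carcass. Its neighbour PgR001X_g273 carried the same annotation and had 32.9 RPKM in the testis and 63.9 in the ovary, against 0.6 in the intestine and 4.5 in the carcass. Of 67 retained genes with myosin in their name 4 were gonad-higher and 0 soma-higher, and 1 of the 4 kept its call under all 4 scalings. The 4 were led in the ovary by myosin-7b (PgR057_g044) with 56.8 RPKM in the testis and 289.6 in the ovary, against 5.7 in the intestine and 2.2 in the carcass. Which cells of the gonad hold these RNAs was not tested.

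Genes of carbohydrate metabolism differed in direction within the list. Glyceraldehyde-3-phosphate dehydrogenase, a glycolytic enzyme, had 6 retained genes, of which 2 were gonad-higher and 0 soma-higher. PgR065_g008 (scaffold PgR065, 81849 to 87225, minus strand) had 140.9 RPKM in the testis and 153 in the ovary, against 6 in the intestine and 4.4 in the carcass, a difference of 4.34. PgR065_g007, whose span overlaps it, had 19.7 RPKM in the testis and 31.6 in the ovary, against 0.8 in the intestine and 0.9 in the carcass. The copy with the highest levels, PgB20_g009, was not called: it had 308 RPKM in the testis and 832.7 in the ovary, against 2052 in the intestine and 1108.5 in the carcass. PEPCK (PgR044_g051), an enzyme of gluconeogenesis, had 738 RPKM in the testis and 820.6 in the ovary, against 21.9 in the intestine and 11.2 in the carcass, a difference of 5.01. Trehalase, which splits the sugar trehalose, was gonad-higher as PgR080_g006, with 136.5 RPKM in the testis and 354.1 in the ovary, against 19.6 in the intestine and 9.9 in the carcass. It was soma-higher as PgB14X_g002, with 5.8 RPKM in the testis and 2.4 in the ovary, against 116.8 in the intestine and 87.5 in the carcass. In the carbohydrate list as a whole, 5 of 85 retained genes were gonad-higher and 2 soma-higher, and its median difference was −1.29. The balance turned with scaling, to 4 gonad-higher and 18 soma-higher after median-of-ratios scaling and 4 and 16 after upper-quartile scaling.

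C-type lectins, sugar-binding proteins, had members on opposite sides, like trehalase: of 19 retained genes 2 were gonad-higher and 5 soma-higher. PgR010_g098 (scaffold PgR010, 1675849 to 1686419, plus strand) had 696.4 RPKM in the testis, 832 in the ovary and 3.7 in the embryo, against 19.2 in the intestine and 38.2 in the carcass. On the same scaffold PgR010_g147, PgR010_g148 and PgR010_g149 stood in a row and were soma-higher. PgR010_g147 had 477.8 RPKM in the testis and 4.6 in the ovary, against 11304.7 in the intestine and 2637.3 in the carcass. Zonadhesin, in mammals a sperm protein that binds the egg coat, had 2 gonad-higher genes and 1 soma-higher gene of 11. PgR004_g030 had 76.7 RPKM in the testis and 730.8 in the ovary, against 5.3 in the intestine and 2.9 in the carcass. PgR030_g100 had 117.1 RPKM in the testis and 2.4 in the ovary, against 2355.1 in the intestine and 522.6 in the carcass. None of the 5 soma-higher lectins kept its call, nor did PgR030_g100, when the intestinal share described below was taken off carcass alone. Carcass was then at 425 RPKM for PgR010_g147 and 61.8 RPKM for PgR030_g100, with testis left as listed.

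**Figure D2:**
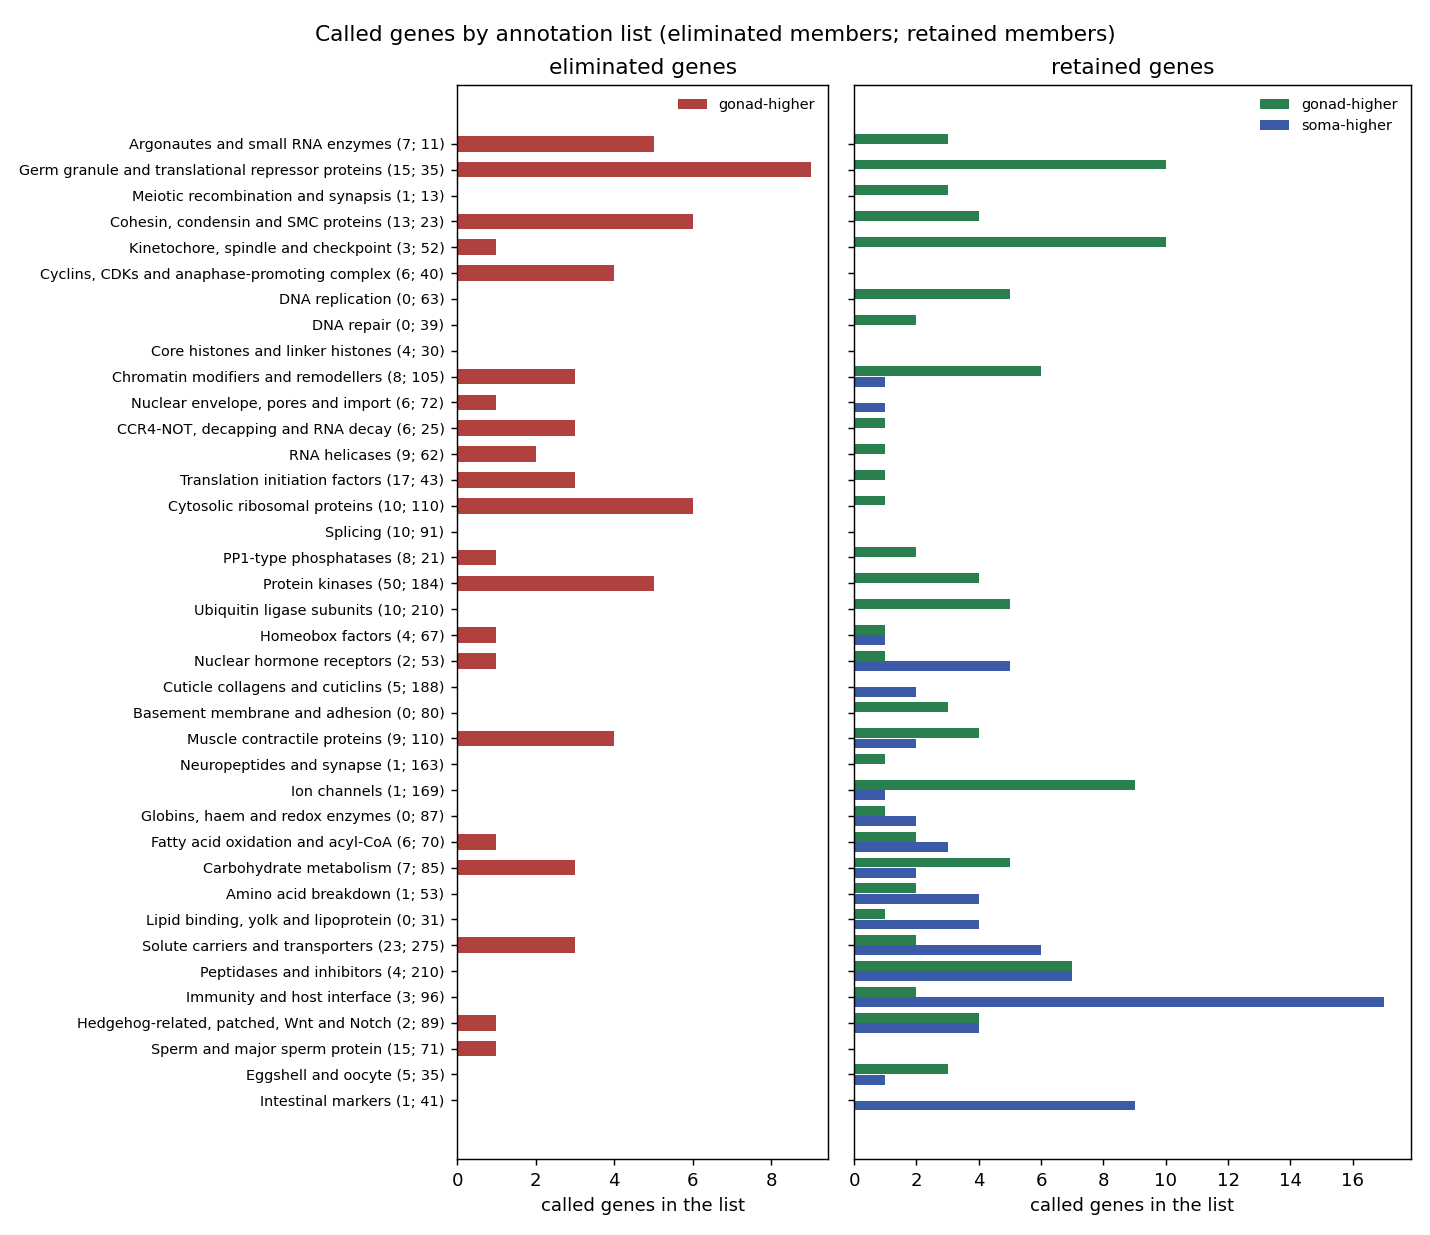
Bars give the number of called genes in each annotation list, for eliminated genes on the left and retained genes on the right, with gonad-higher and soma-higher calls drawn apart; the list sizes follow each name. Gonad-higher calls fill the upper lists in both panels, with 9 eliminated and 10 retained germ granule genes, and 17 retained immunity genes are the longest soma-higher bar.

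The 173 gonad-higher eliminated genes included 127 with an informative name, and many of these names recurred. Argonaute alg-6, of the family that binds small RNAs, was gonad-higher at 4 of 5 eliminated genes and had no retained gene. PgE471_g001 had 18.4 RPKM in the testis and 35.6 in the ovary and was listed at 0 in the intestine and carcass. Poly(A) RNA polymerase gld-2, which lengthens poly(A) tails in the germline of Caenorhabditis elegans, was gonad-higher at all 4 eliminated genes of that text. The 4 genes form 2 pairs of equal exon number, transcript length and span on scaffolds PgB04 and PgB08. PgB04_g196 and PgB08_g098, each with 14 exons and 1941 nt, had 25.5 and 25.8 RPKM in the testis and 12.9 and 14.1 in the ovary, against 1.1 and 1.1 in the intestine and 0.1 and 0.1 in the carcass. Reads of copies this alike cannot be assigned with certainty, so the pairs may be 1 locus each. In all, 7 of the 173 had such an equal copy, and none of the retained calls did. None of the 4 gld-2 genes kept its call under all 4 scalings, while 3 of the 4 alg-6 genes did.

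Among genes of the translation machinery, those of the ribosome differed most between the classes. Of 10 eliminated cytosolic ribosomal protein genes 6 were gonad-higher with a median difference of 2.87, against 1 of 110 retained ones with a median of −0.23. Ribosomal protein L17 of the large subunit had 4 such genes, of which 3 kept their call under all 4 scalings. The 4 had 38.6 to 67.6 RPKM in the testis and 7.5 to 28.6 in the ovary, and none exceeded 0.7 in the intestine or carcass. Ribosomal protein S19G had 2, of which PgE026_g002 had 27.6 RPKM in the testis and 45.9 in the ovary, against 0 (listed) in the intestine and 0.3 in the carcass. Of 17 eliminated initiation factor genes 3 were gonad-higher, at the eliminated background of 17.6%. All 3 encoded subunit I of initiation factor 3; PgE038_g004 had 15.4 RPKM in the testis and 57.9 in the ovary, against 0 (listed) in the intestine and 0.4 in the carcass. Subunit 2 of CCR4-NOT, the main deadenylase complex, had 3 as well, and none of these exceeded 0.1 RPKM in a somatic tissue.

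Chromosome and cell cycle genes recurred too. Of 13 eliminated cohesin, condensin and SMC genes 6 were gonad-higher (median 2.41), and 3 after median-of-ratios scaling, with SMC1A at PgE198_g001, PgE208_g001 and PgE234_g001, all listed at 0 in the intestine and carcass. SMC3 (PgE027_g003), the partner of SMC1 in cohesin, had 22.5 RPKM in the testis and 31.8 in the ovary, against 0.1 in the intestine and 0 (listed) in the carcass. Of 6 eliminated genes in the cyclin, CDK and anaphase-promoting complex list 4 were gonad-higher, and none of 40 retained ones was. Over all genes the shares were 17.6% of the eliminated and 2.36% of the retained ones. Among the 4 was the Hsp90 co-chaperone cdc37 (PgE046_g001), no cyclin, CDK or subunit of that complex, caught by its name alone. Cyclin B3 (PgE004_g006), which drives entry into division, had 22.8 RPKM in the testis and 19.3 in the ovary, against 0.8 in the intestine and 0 (listed) in the carcass. Lamin-1 (PgE188_g001), of the nuclear lamina, had 30.3 RPKM in the testis and 29.6 in the ovary, against 0.4 in the intestine and 0.1 in the carcass. Of 15 eliminated germ granule genes 9 were gonad-higher, but 2 were after median-of-ratios scaling and 3 after upper-quartile scaling. They included a cytoplasmic polyadenylation element binding protein (PgE096_g001) with 11.2 RPKM in the testis and 131.1 in the ovary, against 1.1 in the intestine and 0.5 in the carcass. Of 12 eliminated tubulin genes, which encode the subunits of microtubules, 6 were gonad-higher, and 4 of the 6 kept their call under all 4 scalings. Tubulin alpha (PgE014_g001) had 269.8 RPKM in the testis and 695.2 in the ovary, against 31.6 in the intestine and 24.3 in the carcass. Tubulin beta-1 (PgE153_g002) had 82.1 RPKM in the testis and 256.1 in the ovary, against 8.2 in the intestine and 1.7 in the carcass. Of 10 eliminated splicing genes 0 were gonad-higher, and of 15 eliminated sperm genes 1 was. Only 1 of the 10 and 1 of the 15 had the 5 RPKM in both gonads that the call needs, so these low counts are limited by that minimum.

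Enzymes, kinases and regulators of transcription made up the rest of the leading eliminated genes. The largest difference, 4.66, was that of the chromatin remodeller brm (PgE113_g002, scaffold PgE113, 10141 to 23016, minus strand), with 55.5 RPKM in the testis and 44.4 in the ovary, against 0.8 in the intestine and 0.6 in the carcass. Tau-tubulin kinase 1 (PgB10_g103) had 145.9 RPKM in the testis and 68.8 in the ovary, against 3.4 in the intestine and 2.5 in the carcass. Cdc37 (PgE046_g001), a partner of Hsp90 in the folding of kinases, had 312.2 RPKM in the testis and 67.2 in the ovary, against 6.9 in the intestine and 4.3 in the carcass. The beta chain of propionyl-CoA carboxylase (PgE039_g005) had 504.5 RPKM in the testis and 53.1 in the ovary, against 10.8 in the intestine and 4.9 in the carcass. TATA-box binding protein (PgE029_g004), which places RNA polymerase at promoters, had 98.8 RPKM in the testis and 45.9 in the ovary, against 3.8 in the intestine and 0.7 in the carcass. The kinesin KIF14 was gonad-higher as an eliminated gene too (PgE162_g001), with 8.5 RPKM in the testis and 43.6 in the ovary, against 0 (listed) in the intestine and 0.6 in the carcass. Its retained namesake above was higher in the testis than in the ovary, and this one was higher in the ovary. The homeobox gene ceh-18, which in Caenorhabditis elegans acts in the gonad sheath, was called in both classes. The eliminated PgE178_g001 had 14.9 RPKM in the testis and 8.1 in the ovary, against 0.6 in the intestine and 0 (listed) in the carcass, and the retained PgR264_g001 had 12.9 in the testis and 12.1 in the ovary, against 1.9 in the intestine and 1.9 in the carcass.

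Most of these eliminated genes shared a name with a retained gene. Of the 127 named ones, 94 (74.0%) had a retained gene with the same annotation text, close to the 79.2% of all 590 named eliminated genes (467). A shared text is a name carried over by similarity and does not show that the genes are copies of one another. For each of the 68 texts the retained gene with the highest mean over the 4 tissues was taken. Of these 68, 5 were gonad-higher, 0 soma-higher and 63 neither, and 29 had at least 5 RPKM in both intestine and carcass. Their median difference was −0.49, beside −0.38 over all retained genes. The eliminated genes were chosen for low somatic levels and the retained ones partly for high ones. The choice thus favours a higher somatic level at the retained gene, and that order is no result. In the gonads, each of the 94 eliminated genes was set beside the retained gene of its text, so some retained genes entered more than once. The eliminated gene was above the retained one in both gonads in 31 of the 94 cases and below it in both in 27.

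The values of single pairs are given as a description. The eliminated L17 gene PgE321_g001 had 67.6 RPKM in the testis and 28.6 in the ovary, against 0.1 in the intestine and 0.2 in the carcass, while the retained PgR306_g002 had 202.3 in the testis and 349.5 in the ovary, against 147.6 in the intestine and 93.5 in the carcass. The eliminated CCR4-NOT subunit 2 gene PgE616_g001 had 24.3 RPKM in the testis and 21.9 in the ovary and was listed at 0 in both somatic tissues, while the retained PgR020_g126 had 44.5 in the testis and 315.1 in the ovary, against 71 in the intestine and 17.6 in the carcass. For glycogen synthase kinase-3 beta, of Wnt signalling and glycogen control, the eliminated PgE022_g006 had 20 RPKM in the testis and 26.9 in the ovary and was listed at 0 in soma. The retained PgR001X_g147 had 11.9 in the testis and 23.1 in the ovary, against 28 in the intestine and 18.1 in the carcass, so that gonad levels of this pair were near each other and somatic levels were not. Lamin-1 gave 27.2 RPKM in the testis and 72.6 in the ovary, against 37.3 in the intestine and 10.4 in the carcass, at its retained gene PgR050X_g003. For PRA1 family protein 3, the eliminated PgE068_g006 had 43.8 RPKM in the testis and 38 in the ovary, against 0.7 in the intestine and 1 in the carcass. The retained PgR001X_g218 had 4.7 in the testis and 15.6 in the ovary, against 6.6 in the intestine and 5.2 in the carcass. In this pair the gonad levels differed too, with the retained gene lower in both gonads. Filamin-A was an exception: the retained PgR029_g074 was itself gonad-higher, with 47 RPKM in the testis and 59.4 in the ovary, against 2.4 in the intestine and 1.2 in the carcass, and so was the eliminated PgE285_g001.

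**Figure D3:**
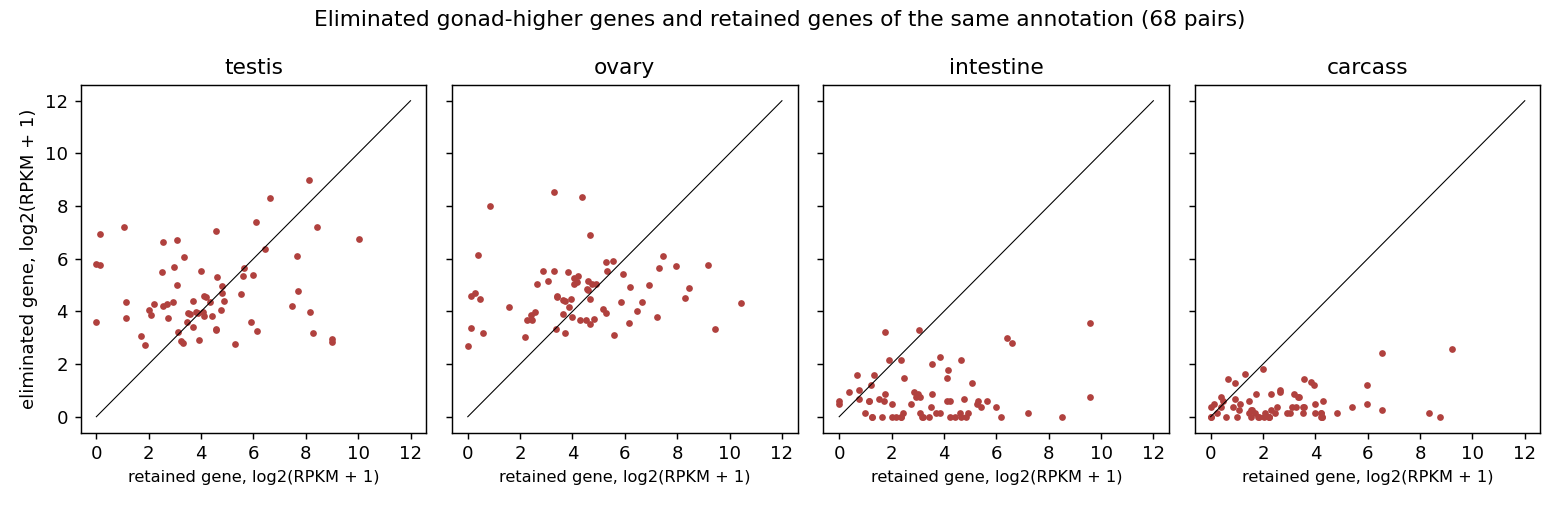
Each point is one annotation text shared by an eliminated gonad-higher gene (vertical) and its highest retained gene (horizontal), as log2(RPKM + 1), with a panel for each tissue and a line of equal levels. Points lie on both sides of the line in the testis and ovary, and most lie below it in the intestine and carcass, where the choice of genes favours that order.

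Eliminated genes were not all silent in soma. At least 5 RPKM in the intestine or carcass was listed for 99 of 985 eliminated genes (10.1%), against 6941 of 14042 retained genes (49.4%). In 87 of the 99 the higher gonad stood above the higher somatic tissue, and 59 had at least 100 RPKM in the testis. In 40 of them both somatic tissues were at or below 5% of testis. Major sperm protein (PgE404_g001), the motor protein of nematode sperm, is one: it had 6855.5 RPKM in the testis and 1.2 in the ovary, against 180.2 in the intestine and 74 in the carcass, which is 2.63% and 1.08% of the testis level. Over 349 genes with at least 100 RPKM in the testis and at most 1% of that in the ovary, intestine stood at a median of 1.70% of testis and carcass at 1.14%. The 81 eliminated ones among them gave 1.6% in the intestine and 1.13% in the carcass, and the 268 retained ones 1.73% and 1.17%. RNA high in the testis and low in the ovary was thus listed in both somatic libraries at like shares for eliminated and retained genes.

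A second set had high levels in all tissues and near-constant proportions. Of 16 eliminated genes listed in the testis with at least 100 RPKM in a somatic tissue, 11 had an ovary level between 45.5% and 66.8% of testis, an intestine level between 26.1% and 33.6% and a carcass level between 40.4% and 45.8%. The band was chosen after the values were seen. Among all genes with at least 100 RPKM in the testis, 13 of 138 eliminated genes lay within the band of 40% to 70%, 25% to 35% and 40% to 50% for these tissues, and 0 of 592 retained genes did. The highest, annotated as the RNA helicase dhx8 (PgE060_g001), had 7303.3 RPKM in the testis and 3596.1 in the ovary, against 2106.3 in the intestine and 3126.4 in the carcass. The one annotated as condensin-2 subunit G2 (PgE075_g001) had 969.3 RPKM in the testis and 535.9 in the ovary, against 325.2 in the intestine and 421.4 in the carcass. These 2 carried unrelated annotations, and whether the transcripts hold a shared sequence was not tested. Neither was called.

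Only 8 of 985 eliminated genes had both somatic tissues above both gonads, and none by 4-fold. The widest was a hypothetical protein (PgE495_g001) with 3.6 RPKM in the testis and 0 (listed) in the ovary, against 61.9 in the intestine and 13.2 in the carcass, a somatic excess of 1.63. An eliminated ASABF-alpha (PgE286_g001), an antimicrobial peptide gene, had 0 (listed) in the testis and 0.5 RPKM in the ovary, against 1 in the intestine and 234.9 in the carcass. These genes were chosen after their values were seen.

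The 255 retained soma-higher genes had a median of 2.6 RPKM in the testis and 0.5 in the ovary, against 66.7 in the intestine and 38.6 in the carcass. By count on the deposited values, genes of immunity and the host interface led the lists, with 17 of 96 soma-higher and 2 gonad-higher, and between 13 and 23 soma-higher under the 4 scalings. By share of members the intestinal markers led, with 9 of 41 soma-higher (22%), against 17.7% for the immunity list. Of the 255, 62 were in any list. Of 13 retained ASABF genes, antimicrobial peptides of the family first described in Ascaris, 6 were soma-higher and 0 gonad-higher, and all 6 kept their call under the 4 scalings. ASABF-beta (PgR162X_g001, scaffold PgR162X, 17110 to 22756, plus strand) had 3.4 RPKM in the testis and 2.5 in the ovary, against 66.1 in the intestine and 363.5 in the carcass. ASABF-alpha (PgR141_g002) had 3.1 RPKM in the testis and 4.2 in the ovary, against 87.1 in the intestine and 430.9 in the carcass. A GH family 25 lysozyme (PgR020_g077), an enzyme that cuts bacterial cell walls, had 5.5 RPKM in the testis and 24.3 in the ovary, against 205.8 in the intestine and 112.1 in the carcass. Galectin-9 (PgR058_g042), a sugar-binding protein, had 12 RPKM in the testis and 4.7 in the ovary, against 368.5 in the intestine and 94.3 in the carcass. The calls of the lysozyme and of galectin-9 were lost with the intestinal share taken off carcass alone, and those of both ASABF genes were kept.

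Other soma-higher genes came from several lists. Nuclear hormone receptors, transcription factors that respond to small lipids, gave 5 of 53 soma-higher and 1 gonad-higher, and the soma-higher count lay between 1 in TPM and 9 after median-of-ratios scaling. PgR002_g189 had 6 RPKM in the testis and 1.9 in the ovary, against 47.5 in the intestine and 27.8 in the carcass. Its call was lost with the intestinal share taken off carcass alone. Of 30 UDP-glucuronosyltransferases, which tag foreign compounds for removal, 6 were soma-higher and 1 gonad-higher. Under all 4 scalings 3 of the 6 kept their call. Of these 6, the highest in the intestine, PgB10_g051, had 10 RPKM in the testis and 0.4 in the ovary, against 474.4 in the intestine and 86 in the carcass. UDP-glucuronosyltransferase 1-6 (PgR128_g002) had 3.1 RPKM in the testis and 0.1 in the ovary, against 75.5 in the intestine and 37.1 in the carcass. Glutathione S-transferase 1 (PgR074X_g043), another detoxifying enzyme, had 28.8 RPKM in the testis and 1.4 in the ovary, against 589.8 in the intestine and 361.5 in the carcass. 2-methyl branched-chain enoyl-CoA reductase (PgR002_g106), which in Ascaris muscle makes branched fatty acids when oxygen is absent, had 1.3 RPKM in the testis and 0.7 in the ovary, against 30.1 in the intestine and 1761.9 in the carcass. A fatty acid-binding protein (PgR005X_g221) had 4 RPKM in the testis and 1.9 in the ovary, against 220.5 in the intestine and 74.9 in the carcass. The homeobox protein lin-39 (PgR078_g015), a Hox factor of the mid-body in Caenorhabditis elegans, had 1.4 RPKM in the testis and 0.2 in the ovary, against 16.1 in the intestine and 20.7 in the carcass. A notch-like gene (PgR024_g020), between neighbours of the same annotation, had 2.1 RPKM in the testis and 2.8 in the ovary, against 71.9 in the intestine and 194 in the carcass.

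Further soma-higher genes differed in whether their call was kept with the intestinal share taken off carcass alone. Cathepsin D (PgR074X_g003), an acid protease, had 29.6 RPKM in the testis and 2.5 in the ovary, against 799.7 in the intestine and 248.2 in the carcass. A cathepsin B-like protease (PgB04_g152) had 10.6 RPKM in the testis and 0 (listed) in the ovary, against 327.4 in the intestine and 106 in the carcass. Heme transporter hrg-1 (PgR008_g064), which in Caenorhabditis elegans moves heme in intestinal cells, had 0.6 RPKM in the testis and 0.1 in the ovary, against 31.6 in the intestine and 6.4 in the carcass. Kynureninase (PgB04_g104), of tryptophan breakdown, had 1.7 RPKM in the testis and 2.7 in the ovary, against 24.9 in the intestine and 19.1 in the carcass. The calls of both cathepsins and of hrg-1 were lost with the intestinal share taken off carcass and testis left as listed. That of kynureninase was kept. Peptidases as a list gave 7 of 210 retained genes gonad-higher and 7 soma-higher, but 1 and 15 after median-of-ratios scaling and 2 and 13 after upper-quartile scaling. Transporters gave 2 gonad-higher and 6 soma-higher of 275, but 0 and 31 after median-of-ratios scaling and 0 and 32 after upper-quartile scaling. Hedgehog and notch family genes gave 4 and 4 of 89, and 1 and 5 after median-of-ratios scaling.

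Few muscle and cuticle genes were soma-higher, at or below the background of 1.82%. Of 110 retained muscle genes 4 were gonad-higher and 2 soma-higher, turning to 1 and 4 after median-of-ratios or upper-quartile scaling, and of 188 cuticle collagens and cuticlins 0 and 2. The call needs at least 5 RPKM in both somatic tissues, which only 25 of the muscle and 15 of the cuticle genes had. The low shares of the whole lists are limited by that minimum. Of those 25 and 15, 2 and 2 were soma-higher, beside 6.82% of all retained genes at that level. Calponin (PgR005X_g036), an actin-binding muscle protein, had 1.2 RPKM in the testis and 3.8 in the ovary, against 19.8 in the intestine and 824.7 in the carcass. Of 22 actin-2 genes, which are outside the muscle list, 4 were soma-higher, among them the neighbours PgR075_g013, PgR075_g014 and PgR075_g015. PgR075_g013 had 3 RPKM in the testis and 5 in the ovary, against 52.1 in the intestine and 98.2 in the carcass. Actin copies are alike, and reads may have been divided among them.

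The intestine was above carcass in 183 of the 255 genes and 4-fold above in 82, and carcass was above intestine in 72 and 4-fold above in 29. Of 41 retained genes of the intestinal marker list 9 were soma-higher and 0 gonad-higher (17 and 0 after median-of-ratios or upper-quartile scaling), and levels in the other tissues followed the intestinal ones. For the 102 genes that reached 100 RPKM in the intestine and stayed within 1% of that in the ovary, the median level was 3.64% of the intestinal one in the testis (quartiles 2.88% and 5.05%), 10.3% in the embryo (9.80% and 11.6%) and 19.6% in the carcass (16.4% and 22.8%). Of the 255 genes, 76 had a carcass level at or below that upper quartile, 107 lay between it and the intestinal level, and 72 had carcass at or above intestine. With 19.6% of the intestinal level taken off carcass, 107 of the 255 kept their call: 2 of the 76, 34 of the 107 and 71 of the 72. These classes are defined by the same carcass and intestine values. The outcome for the 76 and the 72 therefore follows largely from the definition. With that share taken off carcass, gonad-higher genes made up 76.1% of retained calls. Testis values were left as listed there, although testis stood at a median of 3.64% of intestine over the same 102 genes. Losses named for single genes are those with carcass alone lowered. With the shares taken off both carcass and testis, 134 genes in all were soma-higher, and gonad-higher genes made up 71.6%. Sucrase-isomaltase (PgR007_g176), a digestive enzyme, belongs to those lost, with 117 RPKM in the testis and 4.5 in the ovary, against 3376.1 in the intestine and 505.4 in the carcass. Vitellogenin-6 (PgR126X_g018), a yolk protein, kept its call, with 2.4 RPKM in the testis and 1.6 in the ovary, against 961.1 in the intestine and 205.8 in the carcass. So did ASABF-alpha (PgR019_g012), with 0.9 RPKM in the testis and 1.7 in the ovary, against 81.7 in the intestine and 940.3 in the carcass. Whether the shares reflect tissue carried between dissections or expression in each tissue was not tested.

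**Figure D4:**
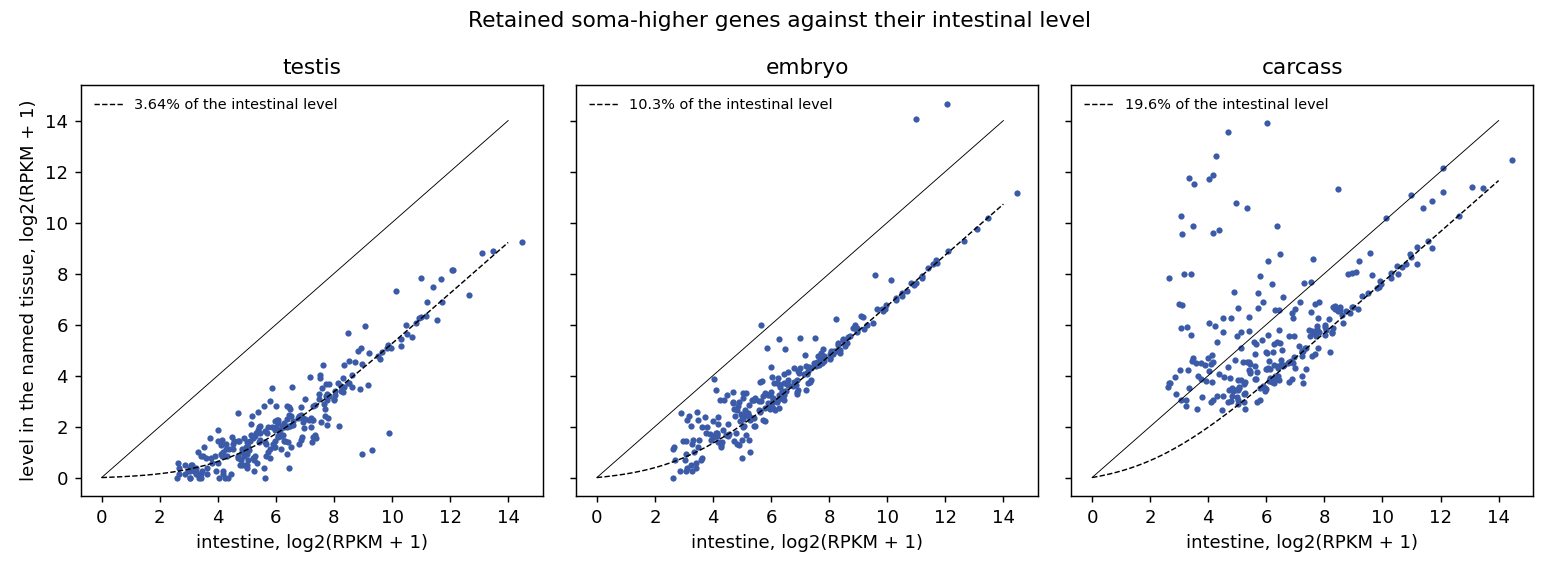
Each point is one of the 255 retained soma-higher genes, with its intestinal level across and its level in the testis, embryo or carcass upward, as log2(RPKM + 1). The dashed curve marks the median share of intestinal level (3.64%, 10.3% and 19.6%) and the solid line equal levels; points mostly follow the curve in embryo and, more loosely, in testis, and in the carcass fall along the curve and in a cloud above it.

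Embryo levels, which the rule did not use, reached those of the gonads for many gonad-higher genes. The embryo stood at or above the lower gonad in 79 of 173 eliminated gonad-higher genes (45.7%, exact interval across genes 38.1% to 53.4%) and in 131 of 332 retained ones (39.5%, 34.2% to 44.9%). Among all genes with at least 5 RPKM in both gonads the share was 50% for eliminated and 71.5% for retained genes. The embryo was at or below the higher somatic tissue in 2 of the 173 and 20 of the 332. The embryo thus stood between gonads and soma for most of the rest. Among the highest was the DNA-binding protein HEXBP (PgB17_g065) with 35.9 RPKM in the testis, 136 in the ovary and 169.6 in the embryo, against 2.5 in the intestine and 0.7 in the carcass. Among the lowest was zonadhesin (PgR004_g030), at 0.7 RPKM in the embryo, and the C-type lectin PgR010_g098 and innexin unc-7 above were low there as well.

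For soma-higher genes the embryo reached the lower somatic tissue in 13 of 255 cases (5.10%), against 64.7% of all retained genes with at least 5 RPKM in both somatic tissues. Its median level was 11.3% of the intestinal one over the 255 genes, beside the 10.3% of the 102 intestinal genes. The highest was protein TAR1 (PgR046_g003), whose name belongs to sequence opposite ribosomal RNA genes. It had 280.5 RPKM in the testis, 565.6 in the ovary and 25985 in the embryo, against 4308.9 in the intestine and 4537.4 in the carcass. Of 26 genes with annotations of this kind 2 were soma-higher. A 3-hydroxyacyl-CoA dehydrogenase (PgR093_g004), an enzyme of fatty acid breakdown, had 1.5 RPKM in the testis, 0.3 in the ovary and 61.4 in the embryo, against 49.2 in the intestine and 36.6 in the carcass.

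**Figure D5:**
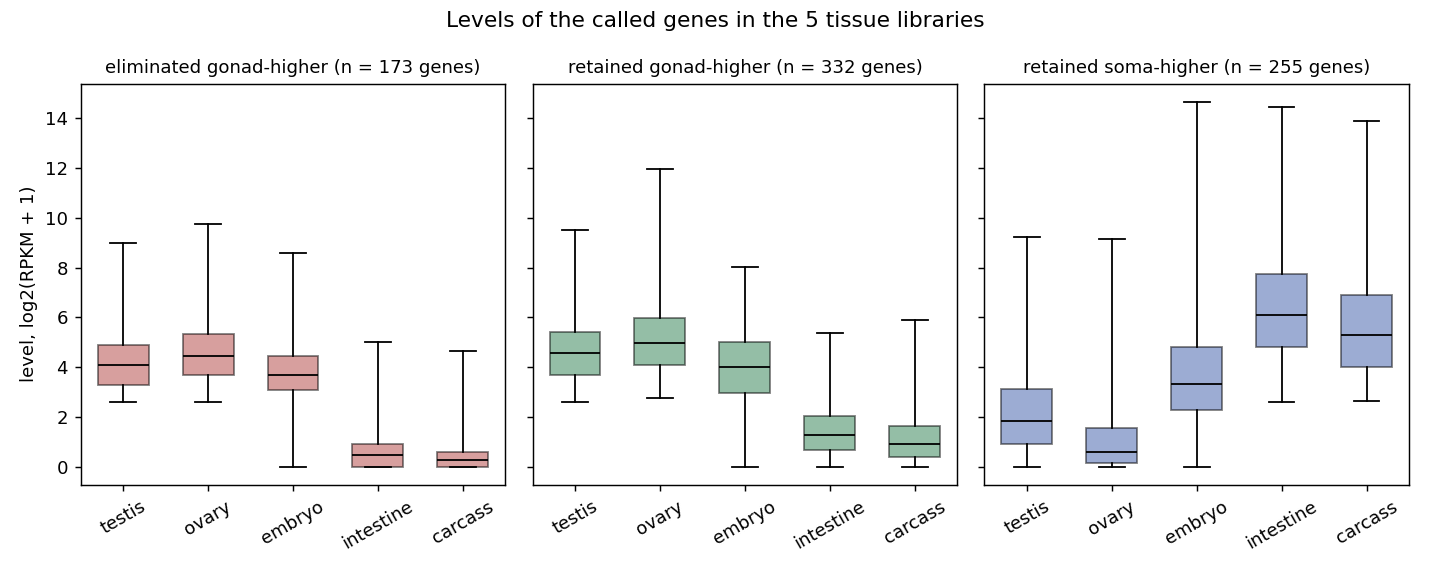
Boxes give the median and quartiles, and whiskers the whole range, of log2(RPKM + 1) in the 5 libraries for the 173 eliminated gonad-higher, 332 retained gonad-higher and 255 retained soma-higher genes. In the gonad-higher groups the embryo box lies near those of testis and ovary, and in the soma-higher group it lies between gonads and intestine.

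Features that the rule did not use were also set beside those of other genes. A spliced leader mark, which records trans-splicing of a short leader onto the 5′ end, was carried by 28.3% of the eliminated gonad-higher genes, against 14.3% of all eliminated genes and 25.4% of those at 5 RPKM in both gonads. It was carried by 55.1% of the retained gonad-higher genes, against 37.6% of all retained genes and 50.9% of those at 5 RPKM in both gonads. Within either class the called genes were therefore near the genes expressed in both gonads. A TeloPrime mark, which records capped 5′ ends, was found for 42.0% of soma-higher genes, against 27% of retained genes at 5 RPKM in both somatic tissues. For retained gonad-higher genes the share was 29.5%, against 20.3% of retained genes at 5 RPKM in both gonads. For eliminated ones it was 20.2% against 21.5%. Whether expression level accounts for these shares was not tested. Scaffolds with an X at the end of their name held 11.4% of the retained gonad-higher genes. They held 18.7% of retained genes at 5 RPKM in both gonads. For soma-higher genes the share was 18%, against 22% of retained genes at 5 RPKM in both somatic tissues. It was 20.3% over all retained genes. What the X stands for is not given in the sources used here. Eliminated gonad-higher genes had a median of 6 exons and 1324 nt, beside 5 exons and 1371 nt for eliminated genes at 5 RPKM in both gonads. Retained gonad-higher genes had 8 exons and 1796.5 nt, beside 9 exons and 1701 nt for retained genes at that level.

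Neighbouring genes were often called together on the somatic side. Of 255 soma-higher genes 78 (30.6%) stood beside another, in 34 runs, of which 27 repeated an annotation. Among them were cathepsin B proteases (PgB04_g152 to PgB04_g154, scaffold PgB04, 2238543 to 2241786) and the C-type lectins of scaffold PgR010 (2393607 to 2429860). The longest run had 4 genes on scaffold PgR003 (2103357 to 2125130) and ended in a bestrophin and a lysosome membrane protein. Of retained gonad-higher genes 45 of 332 (13.6%) stood in 21 runs, 9 with a repeated annotation. Of eliminated gonad-higher genes 53 of 173 (30.6%) stood in 26 runs, 8 with a repeated annotation, on scaffolds that often carry few genes. Repeated neighbours may share reads, so their calls are not independent.

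Genes close to the threshold show what it separates. Just inside on the gonad side, at the threshold itself, lay ankyrin repeat domain protein 12 (PgR018_g126) with 13.4 RPKM in the testis and 28.3 in the ovary, against 2.6 in the intestine and 1.5 in the carcass. Just outside, at 1.99, lay the cytokinesis regulator PRC1 (PgR109_g027) with 22.6 RPKM in the testis and 13.3 in the ovary, against 2.6 in the intestine and 0.3 in the carcass. On the somatic side legumain (PgR089_g031), a lysosomal protease, lay just inside at 2.01 with 3.7 RPKM in the testis and 0.3 in the ovary, against 62.1 in the intestine and 17.9 in the carcass. Alpha-L-fucosidase (PgR103X_g020), which removes fucose from sugar chains, lay just outside at 1.99 with 4 RPKM in the testis and 3 in the ovary, against 116 in the intestine and 18.9 in the carcass.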

How the data were processed

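RNA was extracted with Trizol, depleted of ribosomal RNA with a kit made for human, mouse and rat, and turned into libraries by TotalScript, all per the labels' protocols. The authors deposited a single table of 40487 transcripts on 884 scaffolds, with an RPKM value for each of 5 tissues. That the deposited values are RPKM was read from their steps, which match 1 read on a transcript of the listed length. The submitters' processing notes name TopHat2 and Cufflinks. Sources used here do not give the genome build, the treatment of reads that fit several loci, their strand, or how genes were marked as eliminated. The table holds 0 expression columns of other samples, and 2 mixed 5′ end libraries entered only as marks.

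A pseudocount of 1 RPKM was used throughout. On a transcript of the median length (1325 nt), 3 reads make 0.0721 RPKM for the testis, 0.0715 for the ovary, 0.1895 for the embryo, 0.1221 for the intestine and 0.0822 for the carcass. The call was also run on simulated data with counting error only, equal gonads and equal somatic tissues. That checks the working of the rule and cannot speak to scaling or to variation between worms. The 38 gene lists were found by words in the annotation and hold 3388 genes, some caught by a word alone, such as glycogen synthase kinase among carbohydrate genes. Members and lists were chosen with earlier results of these data known. Genes named are the leading ones by difference with at least 20 RPKM in the lower tissue of the higher pair (30 retained per direction, 20 eliminated), leading members of each list, pairs, and genes at the extremes in embryo, in runs or nearest the threshold. Families counted by a single word, and copies or eliminated genes given beside them, were chosen after their values were seen. Of all genes 443 lie inside a gene on the opposite strand, and their reads may be shared; strand is missing for 1041. Alternatives were other pseudocounts, minima, folds, scalings and transcript choices. Work was done with numpy 2.4.6, pandas 2.3.3, scipy 1.17.1 and matplotlib 3.10.9, and shares of genes carry Clopper-Pearson 95% intervals.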

Additional observations from a re-analysis of the deposited data

How the results depend on the processing

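No paired analysis was possible because each tissue has 1 library, and no library could be left out for the same reason. More eliminated genes were gonad-higher than soma-higher under every alternative tried. Among retained genes the balance of both directions turned to soma-higher with a pseudocount of 5, under scaling by median of ratios or upper quartile, and with equal sums without the 20 highest genes (235 gonad-higher and 294 soma-higher). It turned likewise within lists, such as ion channels (9 and 1 as deposited, 5 and 6 after upper-quartile scaling). The cause of a change was not tested except where fewer genes or a changed threshold makes it plain. With a pseudocount of 5 RPKM, 46 eliminated and 93 retained genes were gonad-higher and 102 retained genes soma-higher, and the embryo reached the lower gonad in 32.6% and 19.4% of the gonad-higher ones. With a minimum of 20 RPKM these were 44, 142, 142, 29.5% and 26.1%. At a 2-fold difference 928 retained genes were gonad-higher and 505 soma-higher, with 2 eliminated genes soma-higher; the embryo reached the pair in 50.2% of retained gonad-higher and 9.31% of soma-higher genes. At 8-fold, 81 eliminated and 90 retained genes were gonad-higher (embryo 26.7% of the retained ones) and 64 soma-higher. Median-of-ratios scaling gave 171 retained gonad-higher, 510 soma-higher and 2 eliminated soma-higher genes, with the embryo at 2.16% of soma-higher ones; upper-quartile scaling gave 112 eliminated and 151 retained gonad-higher, 521 soma-higher and 2 eliminated soma-higher genes, with the embryo at 53.6% of eliminated ones. With equal sums without the 20 highest genes the embryo shares were 65.8% (eliminated) and 45.5% (retained gonad-higher). TPM gave 153 soma-higher genes and an embryo share of 32.7% for retained gonad-higher ones. Values summed over transcripts gave 1 eliminated soma-higher gene. Means of each tissue pair gave 507 eliminated and 1942 retained gonad-higher, 968 soma-higher and 4 eliminated soma-higher genes, with embryo shares of 63.3%, 67.4% and 25.6%. The intestinal shares, an alternative chosen after seeing the data, left 107 soma-higher genes when taken off carcass (embryo 10.3%) and 134 when taken off carcass and testis (20.1%). Of 1140 counts of called genes per list and alternative, 797 stayed within 1.5 times the value given above and 343 did not. Depth limits only genes near 0: at the median length 3 reads are 0.1221 RPKM in the intestine, the shallowest of the 4 libraries compared.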
